A study of Mus musculus with 4 samples.

Results

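The genes described here are 10 components of the Notch pathway in C2C12, a line of mouse myoblasts. Under differentiation medium (DM), low in serum, these cells leave the cell cycle and fuse into myotubes. They were selected by symbol and comprise 3 receptors (Notch1, Notch2 and Notch3), 3 ligands (Dll1, Jag1 and Jag2) and 4 basic helix-loop-helix (bHLH) factors (Hes1, Hes6, Hey1 and Heyl). All 10 were listed in each library, among 24320 gene symbols in the total RNA-seq tables and 24438 in the polyA RNA-seq tables. Total RNA depleted of rRNA was sequenced from 1 library of myoblasts (MB), which the labels place at DM -24 h, and from 1 library of myotubes (MT) at DM 72 h. PolyA RNA was sequenced from 1 library of cells treated with an siRNA against hnRNPL (si-hnRNPL) and from 1 library with the control siRNA (si-NC), both labelled MT and both at DM 48 h. Hnrnpl encodes an RNA-binding protein. Each condition has 1 library, so differences below come without replicate error and without p-values.

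In Notch signalling a transmembrane ligand of the Delta or Jagged family on one cell binds a Notch receptor on its neighbour. Cleavage by an ADAM protease and then by gamma-secretase frees the intracellular domain of the receptor, which joins the DNA-binding protein RBPJ and a Mastermind coactivator in the nucleus. Hes1, Hey1 and Heyl are textbook targets that encode transcriptional repressors, whereas Hes6 encodes a relative that antagonises HES1. In skeletal muscle the pathway is best known for holding myoblasts and satellite cells back from differentiation.

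Levels are FPKM, a fragment number scaled to transcript length and library size, so that different genes can be set side by side within a library. Each FPKM carries the 95% interval that Cufflinks gave it. An interval covers counting and assignment error inside its library only. Its width implies an effective number of fragments, which over all entries came to 59960176 in MB, 54442423 in MT, 21341051 in si-NC and 14592480 in si-hnRNPL. These totals take in every entry, also those without a valid estimate, and are not library depths. In MB and MT they also take in transcript units assembled from the reads. A change is log2 of the ratio of FPKM + 1, in which the added 1 shrinks differences of weakly expressed genes, and it was counted as higher or lower at 1.5-fold or more.

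Summed markers of the culture were as labelled. Summed over 6 myotube genes (Myog, Myh3, Acta1, Ckm, Tnnt3 and Mymk) the level was 14.0 FPKM in MB and 1369 FPKM in MT, and it was 1988 FPKM in si-NC and 2874 FPKM in si-hnRNPL. Over 5 genes of proliferating myoblasts (Mki67, Ccna2, Ccnb1, Top2a and Myf5) the sums were 450.4, 87.2, 218.8 and 155.9 FPKM in the same order. Myf5 was the exception, at 13.8 FPKM in MB and 13.6 FPKM in MT, and it had 38.5 FPKM in si-NC and 29.0 FPKM in si-hnRNPL. Endothelial and neuronal markers stayed under 0.1 FPKM in all 4 libraries. The highest marker of another cell type was Cd68, a macrophage gene, at 0.396 to 1.13 FPKM. Since these are bulk libraries, fewer cells of a kind and less RNA per cell cannot be told apart.

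The sequences upstream of Dll1, Hes6 and Jag2 are shown because these genes lead the comparisons below. Dll1 had the largest log2 ratio of FPKM + 1 in MT over MB (Heyl led in the plain ratio of FPKM), Hes6 was past 1.5-fold in both comparisons, and Jag2 was the member furthest below 0 in MT. Each line gives the 250 bases before a RefSeq start site in GRCm38.p6, 5′ to 3′ on the strand of the gene, which is the minus strand for all 5. Capitals mark CAGCTG, an E-box of the kind bound by myogenic bHLH factors, and CACGCG, a site of the kind bound by HES and HEY factors.
Hes6 at chr1:91414039-91414288: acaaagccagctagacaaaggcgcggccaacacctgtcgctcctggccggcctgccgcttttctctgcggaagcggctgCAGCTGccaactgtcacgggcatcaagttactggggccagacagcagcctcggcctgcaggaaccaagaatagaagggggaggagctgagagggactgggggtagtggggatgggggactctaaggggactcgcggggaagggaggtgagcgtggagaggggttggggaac
Hes6 at chr1:91413223-91413472: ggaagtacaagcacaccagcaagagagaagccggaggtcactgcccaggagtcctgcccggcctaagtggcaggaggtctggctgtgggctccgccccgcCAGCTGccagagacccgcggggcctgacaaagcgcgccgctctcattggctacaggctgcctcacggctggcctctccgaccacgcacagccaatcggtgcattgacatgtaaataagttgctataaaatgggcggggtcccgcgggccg
Dll1 at chr17:15375824-15376073: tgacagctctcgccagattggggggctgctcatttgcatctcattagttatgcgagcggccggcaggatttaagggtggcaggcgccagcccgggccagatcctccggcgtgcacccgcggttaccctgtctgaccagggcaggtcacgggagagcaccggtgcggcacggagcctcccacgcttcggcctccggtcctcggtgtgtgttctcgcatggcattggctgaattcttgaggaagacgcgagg
Dll1 at chr17:15376933-15377182: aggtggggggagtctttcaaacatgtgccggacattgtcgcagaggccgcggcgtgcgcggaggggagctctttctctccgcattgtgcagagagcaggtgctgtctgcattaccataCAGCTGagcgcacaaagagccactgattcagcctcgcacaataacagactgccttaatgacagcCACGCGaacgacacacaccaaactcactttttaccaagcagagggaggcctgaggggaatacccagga
Jag2 at chr12:112929496-112929745: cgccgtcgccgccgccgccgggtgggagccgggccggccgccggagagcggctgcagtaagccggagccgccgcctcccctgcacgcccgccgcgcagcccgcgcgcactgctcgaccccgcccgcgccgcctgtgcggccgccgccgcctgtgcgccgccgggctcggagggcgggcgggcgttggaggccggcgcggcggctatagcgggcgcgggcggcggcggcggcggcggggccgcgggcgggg

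Upstream windows were found for 7 of the 10 genes (9 windows): Notch1, Notch2, Notch3, Dll1, Jag1, Jag2 and Hes6. Hes1, Hey1 and Heyl, the textbook targets among the members, had no window and were not searched. Both Hes6 windows held 1 CAGCTG, at 171 to 166 bases and at 150 to 145 bases before their start sites. In the distal Dll1 window CAGCTG lay 132 to 127 bases and CACGCG 68 to 63 bases before the start. Searched on both strands, CAGCTG occurred in 4 of the 9 windows (3 of 7 genes, Hes6, Dll1 and Jag1) and in 13.1% of all 32544 windows of this length. CACGCG occurred in 3 of 9 (Jag1, Notch2 and Dll1) and in 7.67% of all. TGGGAA, the core of the RBPJ site, and CACGTG, another E-box, had 0 matches in these 9 windows, against 21.6% and 6.03% of all windows. The shares over all windows were not matched for GC content, which was 56% to 87.2% in these 9 windows and bears on how often a motif occurs. A match of letters is a description of the sequence and not a measured binding site, and CAGCTG and CACGCG did not overlap in these windows.

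Differentiation raises the question of which parts of the pathway differ between proliferating cells and myotubes. In MT over MB, 4 members were higher by 1.5-fold or more (Dll1, Heyl, Notch3 and Hes6), 2 were lower (Jag2 and Hes1) and 4 were neither (Notch1, Notch2, Jag1 and Hey1). Of the 11370 named genes with a mean FPKM of 1 or more, 14.5% were higher and 28.5% lower, and of all 24111 named genes 7.9% were higher and 13.8% lower. All 10 members had a mean FPKM of 1 or more over MB and MT, Dll1 and Heyl through MT alone. The median change of the members was 0.24, beside a median of -0.21 for genes with a mean FPKM of 1 or more. Relative to that median, the members split into 4 higher and 1 lower, since Hes1 was then at -0.41, and 20.8% of genes were higher and 19.2% lower. In these libraries the 6 myotube markers were all higher and 4 of the 5 proliferation markers lower by 1.5-fold or more, and their part in the members' differences was not tested.

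**Figure D1:**
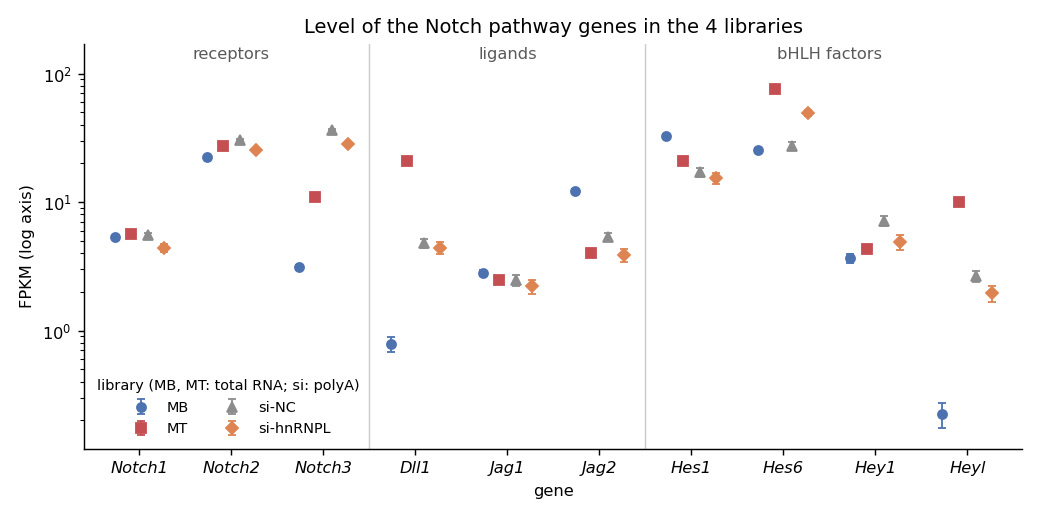
FPKM of the 10 genes (log axis) in the MB and MT total RNA libraries and the si-NC and si-hnRNPL polyA libraries, with the 95% interval of each value, grouped by role. Dll1 and Heyl span the widest range, from 0.783 and 0.224 FPKM in MB to 20.7 and 10.1 FPKM in MT.

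Among the receptors, Notch3 was the one past 1.5-fold. Notch3 (mm9, chr17:32257838-32303797, minus strand), a receptor of muscle stem cells and vascular smooth muscle, had 3.12 FPKM (2.98 to 3.26) in MB and 11.0 FPKM (10.7 to 11.2) in MT. The intervals were far apart, and the log2 change of 1.54 (1.48 to 1.60) was exceeded by 4.21% of the genes with a mean FPKM of 1 or more, the genes to which such shares refer below. In the polyA libraries Notch3 stood at 36.3 FPKM (35.6 to 37.1) in si-NC and 28.6 FPKM (27.8 to 29.4) in si-hnRNPL. These libraries differ from MT in RNA selection, in hours of DM and in transfection, so levels are given side by side and were not compared.

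Notch2 (chr3:97817461-97954290, plus strand), a widely expressed receptor, had 22.3 FPKM (22.0 to 22.6) in MB, 27.4 FPKM (27.1 to 27.8) in MT, 30.3 FPKM (29.7 to 30.9) in si-NC and 25.5 FPKM (24.8 to 26.1) in si-hnRNPL. MT was higher than MB by 0.29 on the log2 scale (0.26 to 0.31), short of 1.5-fold. It rested on 24586 implied fragments in MT, the most of any member, and so had the narrowest interval. Notch1 (chr2:26313422-26359342, minus strand), the founding vertebrate receptor of the family, had 5.30 FPKM (5.14 to 5.47) in MB, 5.66 FPKM (5.49 to 5.82) in MT, 5.53 FPKM (5.27 to 5.79) in si-NC and 4.40 FPKM (4.11 to 4.69) in si-hnRNPL. The MT level lay just above the MB level, with no overlap of the intervals, and the log2 change was 0.08 (0.03 to 0.13). After correction for exon length and GC content the sign for Notch1 turned, to -0.13.

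Dll1 and Jag2, ligands of different families, differed in direction between MB and MT. Dll1 (chr17:15504318-15512787, minus strand), a Delta ligand that myogenic cells present to their neighbours, had 0.783 FPKM (0.675 to 0.890) in MB and 20.7 FPKM (20.1 to 21.2) in MT. This is 26.4 times the MB level (23.0 to 30.4), with a log2 change of 3.60 (3.51 to 3.70), and 0.695% of genes had a larger one. Its MB level rested on 212.0 implied fragments. In si-NC Dll1 stood at 4.78 FPKM (4.37 to 5.20) and in si-hnRNPL at 4.40 FPKM (3.91 to 4.89).

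Jag2 (chr12:114146801-114167706, minus strand), a Jagged ligand, had 12.3 FPKM (11.9 to 12.7) in MB and 3.99 FPKM (3.77 to 4.21) in MT, which is 32.5% of the MB level. Its log2 change was -1.41 (-1.49 to -1.33), and 6.60% of genes lay lower. In the siRNA libraries it had 5.33 FPKM (4.93 to 5.73) in si-NC and 3.86 FPKM (3.44 to 4.28) in si-hnRNPL. In MB, Jag2 was thus the leading ligand and Dll1 the lowest of the 3, and in MT Dll1 led, ahead of Jag2 and Jag1. Jag1 (chr2:136907187-136942256, minus strand), the other Jagged ligand, was low throughout, with 2.82 FPKM (2.66 to 2.98) in MB, 2.49 FPKM (2.34 to 2.64) in MT, 2.45 FPKM (2.22 to 2.68) in si-NC and 2.21 FPKM (1.94 to 2.48) in si-hnRNPL. The log2 change of Jag1 in MT over MB was -0.13 (-0.22 to -0.05), and relative to the median of genes with a mean FPKM of 1 or more this became 0.08.

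The bHLH factors parted in direction as well. Heyl (chr4:122910799-122927113, plus strand), a repressor of the HEY group, had 0.224 FPKM (0.174 to 0.273) in MB and 10.1 FPKM (9.73 to 10.4) in MT. It was the lowest member in MB, with 81.0 implied fragments, and its MT level was 45.0 times as high (35.9 to 56.3). The log2 change of Heyl was 3.18 (3.10 to 3.25), and with a pseudocount of 0.1 FPKM in place of 1 it was 4.97, above the 4.56 of Dll1. In si-NC it stood at 2.66 FPKM (2.39 to 2.92) and in si-hnRNPL at 1.95 FPKM (1.66 to 2.23). Hey1 (chr3:8663359-8667038, minus strand), of the same group, was not past 1.5-fold between MB, at 3.66 FPKM (3.36 to 3.95), and MT, at 4.31 FPKM (4.001 to 4.62), with a log2 change of 0.19 (0.07 to 0.31). It had 7.14 FPKM (6.49 to 7.79) in si-NC and 4.87 FPKM (4.20 to 5.53) in si-hnRNPL.

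The highest member was Hes1 in MB and Hes6 in MT. Hes1 (chr16:30065443-30067882, plus strand), the repressor that serves as the usual readout of the pathway, had 32.6 FPKM (31.5 to 33.7) in MB and 20.8 FPKM (19.9 to 21.6) in MT. Its log2 change of -0.62 (-0.70 to -0.55) was close to the 1.5-fold mark, which its interval spans, and the value was -0.41 relative to the median of genes with a mean FPKM of 1 or more and -0.47 after correction for exon length and GC content. In the siRNA libraries Hes1 had 17.0 FPKM (15.7 to 18.3) in si-NC and 15.3 FPKM (13.9 to 16.8) in si-hnRNPL. Hes6 (chr1:93308060-93309799, minus strand) had 25.5 FPKM (24.5 to 26.5) in MB and 75.7 FPKM (73.9 to 77.4) in MT, the highest level of any member in the total RNA libraries. This was 2.97 times the MB level (2.83 to 3.11), with a log2 change of 1.53 (1.47 to 1.60).

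**Figure D2:**
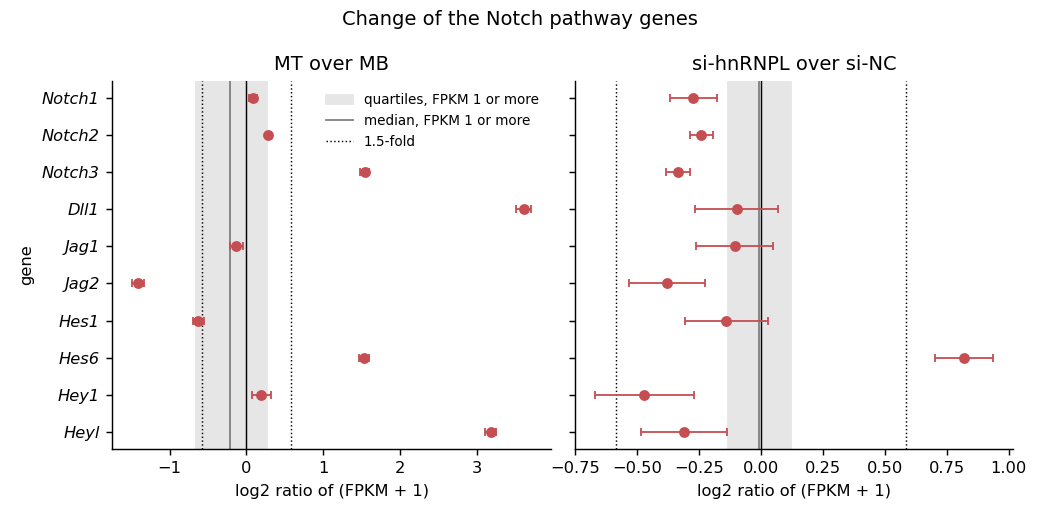
Log2 ratio of FPKM + 1 for the 10 genes in MT over MB (left) and si-hnRNPL over si-NC (right, with a narrower axis), each with its interval. The grey band runs between the quartiles of all named genes with a mean FPKM of 1 or more, the grey line is their median and the dotted lines mark 1.5-fold. Dll1 (3.60) and Heyl (3.18) lie furthest to the right in MT over MB, and Hes6 (0.82) is the one gene past a dotted line in si-hnRNPL over si-NC.

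Within a library, neighbours in the order of levels were held apart where their intervals did not overlap. In MB the order was Hes1, Hes6, Notch2, Jag2, Notch1, Hey1, Notch3, Jag1, Dll1 and Heyl, and 1 of the 9 neighbouring pairs overlapped (Notch3 and Jag1). In MT it was Hes6, Notch2, Hes1, Dll1, Notch3, Heyl, Notch1, Hey1, Jag2 and Jag1, with 2 overlapping pairs (Hes1 with Dll1, and Hey1 with Jag2). The levels of Dll1 and Hes1 thus could not be told apart in MT, although Hes1 was the highest and Dll1 the second lowest member in MB. In si-NC Notch3 led, followed by Notch2, Hes6, Hes1, Hey1, Notch1, Jag2, Dll1, Heyl and Jag1, with 3 overlapping pairs. In si-hnRNPL Hes6 led, followed by Notch3, Notch2, Hes1, Hey1, Dll1, Notch1, Jag2, Jag1 and Heyl, with 4 overlapping pairs.

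The rest of the pathway was described with a list of 50 further genes. In MT over MB, 7 of the 49 with a value were higher and 4 lower by 1.5-fold or more, with a median change of -0.01. Of all 24111 named genes 7.9% were higher and 13.8% lower, and of the 11370 with a mean FPKM of 1 or more 14.5% and 28.5%. Relative to the median of the latter the numbers in the list were 9 and 3, where 20.8% of those genes were higher and 19.2% lower. Tle1, a corepressor, has no value here because Cufflinks failed to estimate it in MB. Of the 49, 35 had a mean FPKM of 1 or more. The receptors and ligands outside the members (Notch4, Dll3, Dll4 and Dlk1) reached no more than 0.113 FPKM in any library.

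Of the proteases and gamma-secretase subunits, 1 of 10 was past the mark. Psen2, a catalytic subunit of gamma-secretase, was higher in MT (10.9 against 3.18 FPKM, log2 change 1.51). Aph1b and Aph1c are near-identical paralogs, and how their shared reads were split is not certain. Lfng, the fringe glycosyltransferase that adjusts which ligands a Notch receptor answers to, was lower (4.59 against 14.9 FPKM, log2 change -1.51). The other 3 glycosyltransferases were not past 1.5-fold in the ratio of FPKM + 1. In the plain ratio of FPKM, Rfng was past it (5.88 against 8.97 FPKM, 1.52 times as much in MB). So was Mfng, which was near 0 in both libraries (0.0894 against 0.00721 FPKM).

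Of the 11 ubiquitin ligases and endocytic adaptors, 4 were higher and 1 was lower, where the shares over named genes with a mean FPKM of 1 or more were 14.5% and 28.5%. Neurl1a and Mib2, ligases that act on Notch ligands in the cell that presents them, were higher in MT by 2.46 (21.2 against 3.05 FPKM) and by 0.61 (8.32 against 5.11 FPKM) on the log2 scale. Neurl1b was lower, at -1.25 (0.932 against 3.59 FPKM). The Deltex genes Dtx4 and Dtx3 had log2 changes of 2.46 (13.7 against 1.68 FPKM) and 0.94 (20.6 against 10.2 FPKM). Numb, an inhibitor of the receptor, was at -0.01 (6.83 against 6.91 FPKM), with an interval that included 0 (-0.11 to 0.08).

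In the nucleus Rbpj, the DNA-binding partner of the receptor, had 26.9 FPKM in MB and 20.2 FPKM in MT, a log2 change of -0.39 that was not past 1.5-fold. Kat2b, a histone acetyltransferase, was the 1 coactivator of 7 genes in its group past the mark, at 0.88 (23.4 against 12.2 FPKM). Of all named genes with a mean FPKM of 1 or more, 14.5% were higher. Maml3, a Mastermind coactivator, was at 0.54 (4.66 against 2.89 FPKM), short of the mark. Its plain ratio of FPKM was 1.61 (1.51 to 1.72). Among corepressors Tle2 was higher, at 1.09 (2.85 against 0.811 FPKM), and Hdac1 lower, at -1.10 (16.0 against 35.4 FPKM). Of the 6 targets outside the members, Nrarp, a feedback inhibitor, was lower, at -0.63 (0.272 against 0.964 FPKM), and no other was past the mark. All 6 stayed under 1 FPKM in every library. The intervals of Mib2 (0.52 to 0.70) and Nrarp (-0.76 to -0.50) span the 1.5-fold mark.

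**Figure D3:**
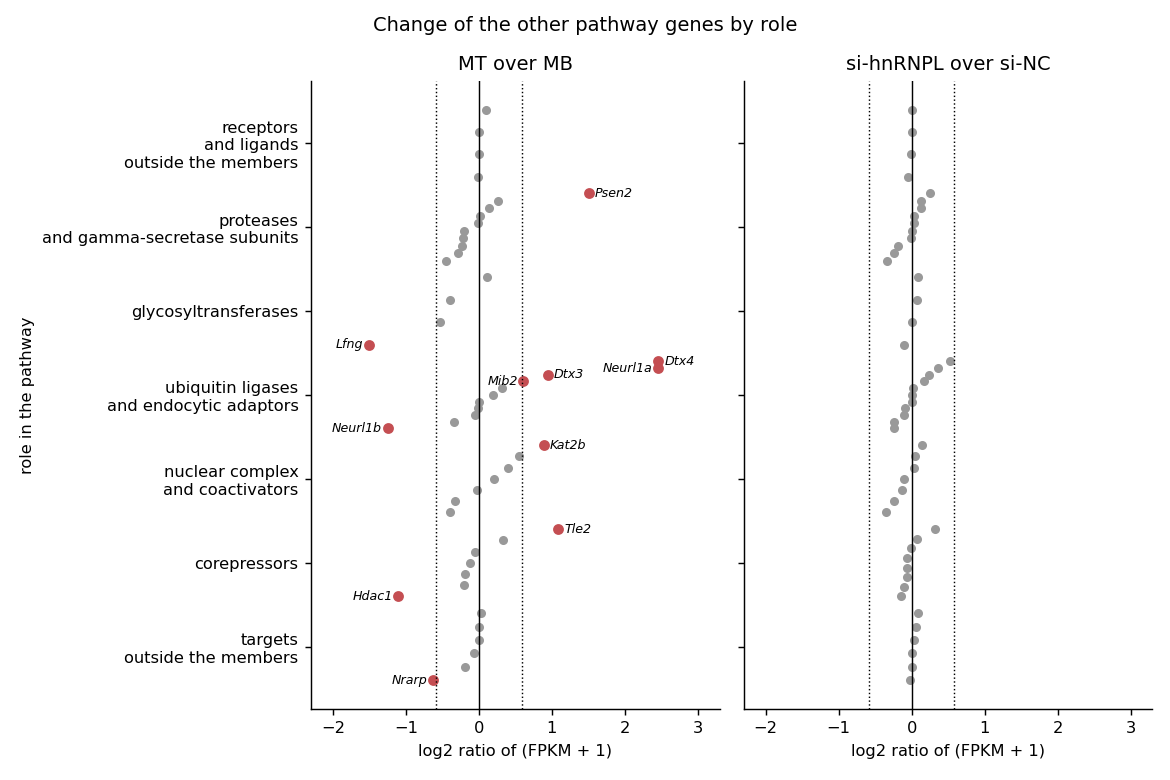
Log2 ratio of FPKM + 1 for the other pathway genes, in rows by role, in MT over MB (left, 49 genes) and si-hnRNPL over si-NC (right, 50 genes). Red points are past 1.5-fold (dotted lines) and carry their names, 7 to the right and 4 to the left in MT over MB and 0 in si-hnRNPL over si-NC.

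The siRNA comparison asks what differs in differentiating cells when hnRNPL is targeted. Hnrnpl itself had 95.1 FPKM (92.7 to 97.5) in si-NC and 85.9 FPKM (83.1 to 88.7) in si-hnRNPL, which is 90.4% of the si-NC level. The mRNA of the target was thus little lower, and the protein was not measured in these files, so the extent of the knockdown behind the values below was not checked. Hes6 was the 1 member of 10 past 1.5-fold, and 0 were lower by as much. Of the 11183 named genes with a mean FPKM of 1 or more, 1.17% were higher and 0.832% lower by 1.5-fold or more, and of all 24437 named genes 0.606% were higher and 0.405% lower. Hes6 had 27.6 FPKM (25.8 to 29.3) in si-NC and 49.4 FPKM (46.5 to 52.2) in si-hnRNPL, 1.79 times as much (1.65 to 1.95). The log2 change was 0.82 (0.70 to 0.94), and 0.393% of genes had a larger one.

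The other 9 members lay below 0 in si-hnRNPL, and 6 of them had an interval below 0. Over all genes with a mean FPKM of 1 or more, 52.1% lay below 0 and 26.7% had an interval below 0. Hey1 was furthest down, with a log2 change of -0.47 (-0.67 to -0.27), a level of 68.2% of si-NC, and 1.82% of genes lower still. Jag2 followed, at -0.38 (-0.53 to -0.23). The 3 receptors came close together, with Notch3 at -0.34 (-0.38 to -0.29), Notch1 at -0.27 (-0.37 to -0.18) and Notch2 at -0.24 (-0.29 to -0.20). Heyl had -0.31 (-0.49 to -0.14).

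For Hes1 (-0.14, -0.31 to 0.03), Jag1 (-0.11, -0.26 to 0.05) and Dll1 (-0.10, -0.27 to 0.07) the interval included 0, so no difference was detectable at this depth. The median over the 10 members was -0.26, beside -0.01 for all genes with a mean FPKM of 1 or more. Members rested on 188.9 to 5983 implied fragments in si-hnRNPL and on 409.0 to 10903 in si-NC.

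The markers of the culture differed between the siRNA libraries too. All 6 myotube genes were higher in si-hnRNPL, by 0.36 to 0.71 on the log2 scale, with 2 past 1.5-fold, and all 5 proliferation genes were lower, at -0.62 to -0.31, with 2 past 1.5-fold. Their part in the members' differences was not tested. Changes between the siRNA libraries also varied with exon length (Spearman's rho -0.41 across 9930 protein-coding genes) and with GC content (rho 0.42). These correlations are across genes within 1 pair of libraries, and genes are not independent replicates. Hes6 has the shortest summed exon length and the highest GC content of the members, 1808 bp and 62.3%, while Notch1 has 14232 bp and 55.4%.

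After correction for both properties the log2 change of Hes6 was 0.63, still past 1.5-fold. With this correction 0.463% of genes were higher by 1.5-fold or more. The corrected value of Hey1 was -0.56 and that of Jag2 -0.49. All 10 members kept their sign and their side of 1.5-fold, and the median of the members was -0.24.

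**Figure D4:**
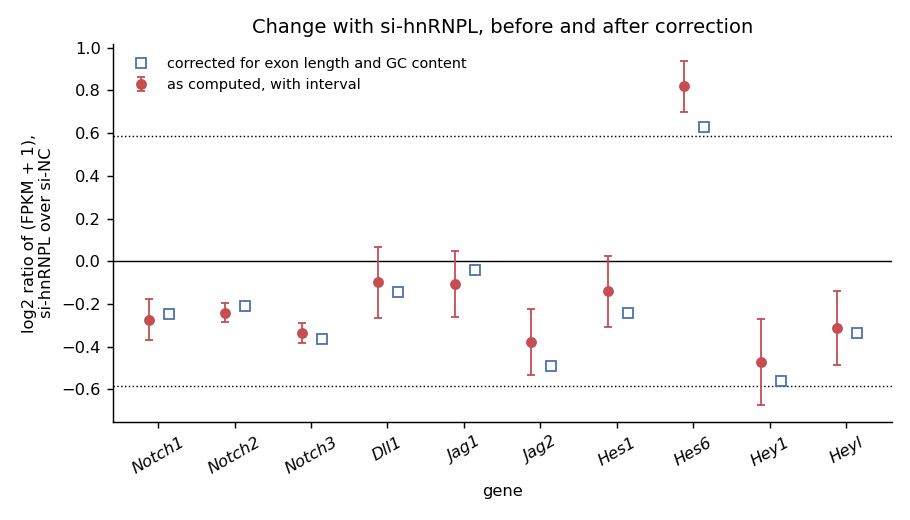
Log2 ratio of FPKM + 1 in si-hnRNPL over si-NC for the 10 genes, as computed with its interval (filled circles) and corrected for exon length and GC content (open squares). Dotted lines mark 1.5-fold. Hes6 moves from 0.82 to 0.63 and the other 9 remain below 0 and above the lower dotted line.

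None of the 50 other pathway genes was past 1.5-fold between the siRNA libraries (0 higher and 0 lower), and their changes ran from -0.36 to 0.52 around a median of 0. Numbl, an endocytic adaptor related to Numb, had the highest value, with 13.01 FPKM in si-NC and 19.2 FPKM in si-hnRNPL (0.52, 0.41 to 0.64). Rbpj had the lowest, with 28.7 and 22.2 FPKM (-0.36, -0.44 to -0.27). The metalloprotease Adam10 was next, with 50.3 and 39.5 FPKM (-0.34, -0.40 to -0.29). These 3 genes were chosen after their values were seen. The genes of the list that were past the mark in MT over MB ran here from -0.25 (Neurl1b) to 0.36 (Dtx3).

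The total RNA tables also list transcript units assembled from the reads, and 27 of them lay inside the locus of a member. Notch1 held 13, Notch2 5, Notch3 5, Jag1 3 and Dll1 1, and the other 5 members held 0. They were 213 to 2328 bp long, and 26 had no base in an annotated exon of the gene. The tables give no strand for them, so intronic RNA of the gene and separate transcripts cannot be told apart.

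Of these units 24 had a higher level in MT than in MB, 20 with an interval above 0 and 0 with an interval below 0, and 13 were past 1.5-fold. Among all 17614 units inside 1 named gene with a mean FPKM of 1 or more, 83.0% were above 0 and 33.5% past 1.5-fold, beside 88.9% and 48.1% of the units inside members. The share of all these units with an interval above or below 0 was not computed. All 5 Notch2 units were higher in MT, at 0.839 to 1.87 FPKM in MB and 3.19 to 7.05 FPKM in MT, with a median log2 change of 1.30 against 0.29 for the gene. The longest, at chr3:97911733-97914060 of mm9 (2328 bp), had 1.52 FPKM (1.34 to 1.71) in MB and 5.24 FPKM (4.90 to 5.57) in MT.

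At Notch3 the 5 units were higher as well, with a median of 1.11 that lay under the change of the gene (1.54). The 13 Notch1 units had a median of 0.35, and 10 of them were above 0. The Dll1 unit was listed at 0 in MB and at 3.35 FPKM (1.89 to 4.82) in MT. The 3 Jag1 units had 0.464 to 0.570 FPKM in MT and a median of 0.32, while the gene was at -0.13. Over all units inside named genes, 72.5% had a larger change than the gene around them, and inside the members 66.7% did.

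**Figure D5:**
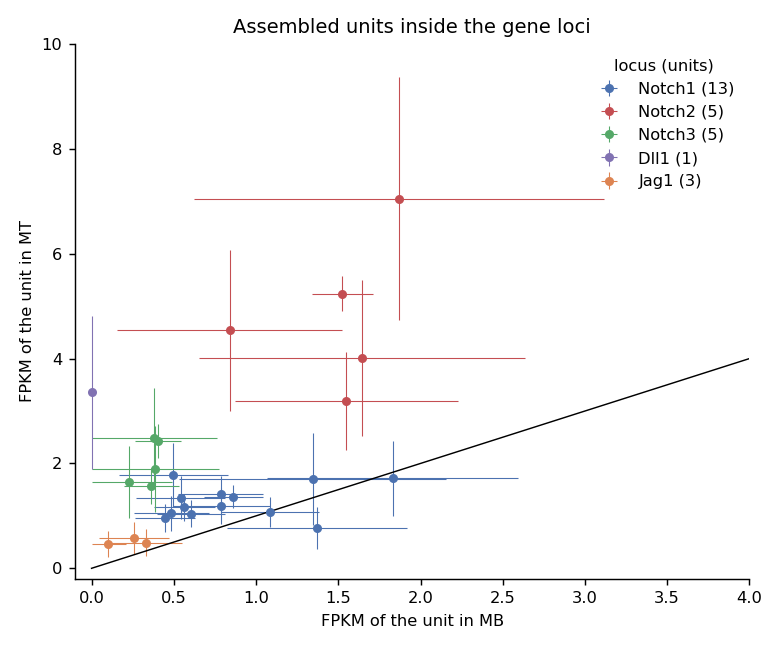
FPKM of the 27 assembled units inside the member loci in MB (horizontal axis) and MT (vertical axis), with 95% intervals, coloured by gene. The line marks equal levels. The 5 Notch2 units sit at 3.19 to 7.05 FPKM in MT, and 24 of the 27 units lie above the line.

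For the 2 members with the largest change in each comparison, the named genes with the closest pairs of log2 changes were looked up among 10069 genes with 1 FPKM or more in all 4 libraries. Likeness was the Euclidean distance between the pairs, which rest on 4 libraries. Dll1 and Heyl, at 0.783 and 0.224 FPKM in MB, fall short of that level themselves. Genes as low as they are in MB were thus not among the candidates. Closest to Heyl were Akap6 (3.14 in MT over MB and -0.25 in si-hnRNPL over si-NC, distance 0.0665), which encodes a kinase anchor of striated muscle, Spry1 (3.09 and -0.23), which encodes an inhibitor of receptor tyrosine kinase signalling, and Sema6a (2.88 and -0.39). Among these candidates Dll1 had no neighbour as close, with Aldh3b1 (3.36 and 0.07, distance 0.297), Lrrn1 (3.33 and 0.05) and Mest (3.45 and 0.19). Hes6 was nearest to Pcx (1.34 and 0.67, distance 0.244), which encodes pyruvate carboxylase, C1rl (1.67 and 0.59) and Smim4 (1.29 and 0.70). Around Hey1 lay Cdh18 (0.14 and -0.54, distance 0.0839) and Sh3pxd2b (0.15 and -0.38).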

How the data were processed

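The 4 libraries comprised total RNA from MB and from MT and polyA RNA from cells given si-hnRNPL or si-NC. Per the labels, the total RNA was depleted of rRNA and its libraries kept strand. Whether the polyA libraries and the counting did is not given in the sources used here. The authors mapped reads to mm9 with TopHat2, estimated abundance with Cufflinks and deposited FPKM values with 95% intervals. Unnormalized counts were not used here.

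Members were matched by symbol, taking the first listed entry with a valid estimate in both libraries. Changes were log2 ratios of FPKM + 1, with half-widths of both intervals combined in quadrature, and were counted at 1.5-fold. The members and lists were chosen with earlier results of these data known. All members are named, other pathway genes where past 1.5-fold, and for the 2 members with the largest change in each comparison the 3 nearest genes. Not every gene picked this way is reported here. Other genes are marked where they were chosen after their values were seen, and Numb and Rbpj are given in MT over MB for their role. Rfng, Mfng and Maml3 were named in MT over MB for their plain ratios of FPKM, after their values were seen.

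Exon lengths, GC contents and exons came from GENCODE vM1 on NCBIM37 (mm9), the build of the files, whose loci overlapped its gene models but did not always share their ends. The correction subtracted medians over 20 bins of either property in 3 rounds and added the overall median back, for protein-coding genes with a mean FPKM of 1 or more. Promoter windows came from RefSeq (GRCm38.p6). Python 3.11.15, numpy 2.4.6, pandas 2.3.3 and matplotlib 3.10.9 were used. The fold count, its interval and the bin correction were tested on simulated data, and the other calculations were not. Simulated counts were drawn from the implied fragments, so the coverage of the intervals was largely set by construction. The simulated gene properties were independent of each other, which was not checked for exon length and GC content. The alternatives were pseudocounts of 0.1 and 0.01, centring, the correction, a fold of 2, intervals without 0, summed entries and a filter on FPKM.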

Additional observations from a re-analysis of the deposited data

How the results depend on the processing

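Of the 10 members, 4 were higher in MT over MB under each alternative tried. The number lower dropped from 2 to 1 (Jag2) with centring on the median of genes with a mean FPKM of 1 or more, with correction for exon length and GC content, and at a fold of 2, since Hes1 then missed the mark. The median change of the members in MT over MB was 0.45 after centring, against 0.24. With a pseudocount of 0.01 FPKM, 12 other pathway genes were higher and 7 lower in MT over MB. In si-hnRNPL over si-NC 3 were higher and 2 lower, where 0 were with a pseudocount of 1. Those were Mfng, Hes5 and Nrarp (higher) and Dll4 and Hes3 (lower), each with at most 8.00 implied fragments in either library. The share over all genes at a pseudocount of 0.01 was not computed. At a fold of 2 the number higher in MT over MB was 4, and no member was higher in si-hnRNPL over si-NC (0, since Hes6 is at 1.79 times). Under the pseudocounts of 0.1 and 0.01 FPKM the members kept their sign and their side of 1.5-fold, while the log2 change of Heyl in MT over MB went from 3.18 to 4.97 and 5.43 and that of Dll1 from 3.60 to 4.56 and 4.71. Summing entries with the same symbol moved no member. No paired analysis was possible because each condition has 1 library, and leaving out a library leaves its group empty. Depth limits the lowest members, Heyl in MB with 81.0 and in si-hnRNPL with 188.9 implied fragments.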
